A study of Rattus norvegicus with 12 samples.

Results

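The subject is 10 genes of the kidney tubule that carry glucose, lactate or phosphate across the cell membrane: the glucose transporters Slc2a1, Slc2a2, Slc5a1 and Slc5a2, the sodium-coupled lactate transporters Slc5a8 and Slc5a12, and the phosphate transporters Slc34a1, Slc34a3, Slc20a1 and Slc20a2. They were taken by the gene name given on the array, with every probe of that name. This gave 13 probes out of 30367 on the array, and all 13 were among the 21062 probes bright enough to be tested. Slc20a2 had 3 probes, Slc5a12 had 2, and the other genes had 1 each; where a gene had several, the brightest stood for it in counts.

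Left kidneys of female F344 rats aged 10 weeks gave the RNA. The groups were kidneys taken 3 days after ischaemia and reperfusion of the left kidney alone (called day 3 here, 4 rats), kidneys taken 7 days after the same injury (day 7, 4 rats), and kidneys taken 7 days after a sham operation (sham, 4 rats). No genotype or drug was named, and what was done with the right kidney was not given in the sources used here. The sham kidneys were all taken at 7 days, so in the day 3 comparison the time after the operation differs along with the injury, and the length of the ischaemia was not given in the sources used here. Each RNA sample was labelled with 1 dye and read on 1 Agilent rat expression array. Signals are given as log2 intensity after subtracting the array's own 75th percentile, so a value of 0 is the level of that percentile and a difference of 1 is a factor of 2. Probe brightness depends on the probe, so signals are compared between kidneys and never between genes. A change is called where the limma test across all tested probes gave an adjusted p below 0.05.

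The proximal tubule takes back nearly all filtered glucose, phosphate and lactate. On its urinary side, sodium-coupled carriers take up the solute: SGLT2 (Slc5a2) in the early part and SGLT1 (Slc5a1) in the late part for glucose, the low-affinity SMCT2 (Slc5a12) and the high-affinity SMCT1 (Slc5a8) for lactate and related acids, and NaPi-IIa (Slc34a1) and NaPi-IIc (Slc34a3) for phosphate. On the blood side, glucose leaves through GLUT2 (Slc2a2) and GLUT1 (Slc2a1), which need no sodium. PiT-1 (Slc20a1) and PiT-2 (Slc20a2) are phosphate carriers found in most cell types.

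The 75th percentile itself was 714 ± 34.5 intensity units at day 3, 502 ± 60.9 at day 7 and 328 ± 72.6 in sham (SD, n = 4 each), so the scaling removed a 2.17-fold difference in overall brightness at day 3. An intensity that did not change therefore reads lower at day 3 after the scaling. With dim probes let in, the median log2 change over all probes at day 3 was -0.45. Between 65.0% and 80.6% of spots stood well above background on an array. Defining markers of the proximal tubule were bright in sham kidneys, and 10 of 12 fell at day 3 (median log2 change -1.77), as did 4 of 5 markers of its last segment, S3 (median -4.35). The fall was not limited to the proximal tubule: 7 of 7 markers of other tubule segments (median -2.35), 4 of 6 endothelial markers (median -1.50) and 2 of 3 erythrocyte markers also fell. All 6 tested markers of injured tubule rose at day 3, as did 5 of 5 proliferation, 5 of 5 fibroblast and 4 of 7 macrophage markers. Over all tested probes, 32% were called lower and 24.5% higher at day 3, and the marker counts of this paragraph stand against these shares. A count such as 2 of 3, 4 of 6 or 4 of 7 therefore carries little weight alone. In RNA of bulk kidney tissue, fewer cells of a type and less RNA per cell cannot be told apart. Of 9 markers of neighbouring liver, islet or adrenal tissue, Alb, Ttr, Apoa1 and Cyp11b1 did not stand above background on all 4 arrays of any group. The adrenal marker Cyp21a1 and the insulin genes Ins1 and Ins2 did so in every group, and Gcg and Star in some. Of these 5, 4 were lower at day 3 than in sham, Cyp21a1 by a log2 change of -1.31 (adjusted p = 1.82e-05), and Star was not called. Their part in the results was not tested.

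Promoters of 8 of the 10 genes were listed by RefSeq on the assembly GRCr8. They were searched for the binding letters of HNF1, a homeodomain factor of proximal tubule and liver, written as GTTAAT, 1 free base and then ATTAAC, with up to 3 mismatches over its 12 fixed letters. Both strands were read, on which the letters are the same. Within 250 bases before to 50 bases after the gene start, 8.7% of 33469 promoters held such a match, and 4 of the 8 transporter promoters did. This match rule was chosen with the promoters of these genes in view: an exact match to the 6 letters GTTAAT was considered first, and the looser rule was taken after that one was seen to miss Slc5a2 and Slc34a3. All the matches have exactly 3 mismatches, the most the rule allows. With up to 2 mismatches, 0 of the 8 promoters matched, against 1.19% of all promoters, and the exact 6 letters were in 1 of the 8 (Slc34a1), against 7.45%. The count of 4 therefore rests on the rule, and nothing is read from its difference from the share of all promoters. Slc34a1 held 2 overlapping matches, 161 to 142 bases before the start, Slc34a3 held 1 at 72 to 60 bases, Slc5a12 held 1 at 67 to 55 bases and Slc5a2 held 1 at 62 to 50 bases. The promoters of Slc2a1, Slc2a2, Slc5a1 and Slc5a8 held none. The hypoxia core ACGTG, present in 19.3% of all promoters, was found in Slc2a1, Slc5a1, Slc5a2 and Slc5a8, and TATAAA, present in 14.2%, in Slc34a1 and Slc2a1.

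The 250 bases before the start are printed for the 4 genes with a match and for Slc5a8 and Slc2a2, whose signals moved far without one. Capitals mark the HNF1 matches. The stretches are chr17:9238984-9239233 on the minus strand for Slc34a1, chr3:28447998-28448247 on the minus strand for Slc34a3, chr1:192277371-192277620 on the plus strand for Slc5a2, chr3:117633637-117633886 on the plus strand for Slc5a12, chr7:25160030-25160279 on the plus strand for Slc5a8 and chr2:113540120-113540369 on the plus strand for Slc2a2.
Slc34a1: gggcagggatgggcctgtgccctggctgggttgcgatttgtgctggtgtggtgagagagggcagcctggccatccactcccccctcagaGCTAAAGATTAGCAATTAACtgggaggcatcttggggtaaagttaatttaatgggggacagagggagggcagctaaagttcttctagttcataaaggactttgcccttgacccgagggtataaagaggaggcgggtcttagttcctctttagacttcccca
Slc34a3: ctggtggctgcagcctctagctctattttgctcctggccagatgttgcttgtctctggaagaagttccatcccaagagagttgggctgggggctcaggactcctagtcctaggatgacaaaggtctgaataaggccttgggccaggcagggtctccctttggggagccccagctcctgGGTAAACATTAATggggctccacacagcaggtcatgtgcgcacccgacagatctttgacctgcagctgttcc
Slc5a2: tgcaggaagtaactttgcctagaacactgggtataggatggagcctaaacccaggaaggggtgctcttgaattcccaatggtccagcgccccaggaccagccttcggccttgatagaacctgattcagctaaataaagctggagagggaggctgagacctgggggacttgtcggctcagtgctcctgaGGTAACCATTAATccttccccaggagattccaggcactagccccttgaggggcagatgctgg
Slc5a12: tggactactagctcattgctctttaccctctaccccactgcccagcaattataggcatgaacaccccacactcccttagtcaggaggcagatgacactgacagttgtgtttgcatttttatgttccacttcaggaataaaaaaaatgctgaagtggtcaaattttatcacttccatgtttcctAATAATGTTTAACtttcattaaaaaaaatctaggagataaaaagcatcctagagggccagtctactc
Slc5a8: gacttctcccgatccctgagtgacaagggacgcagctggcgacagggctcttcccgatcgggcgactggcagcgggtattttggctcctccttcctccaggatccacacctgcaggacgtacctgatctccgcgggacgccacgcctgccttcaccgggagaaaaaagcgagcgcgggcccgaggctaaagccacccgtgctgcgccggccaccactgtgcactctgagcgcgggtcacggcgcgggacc
Slc2a2: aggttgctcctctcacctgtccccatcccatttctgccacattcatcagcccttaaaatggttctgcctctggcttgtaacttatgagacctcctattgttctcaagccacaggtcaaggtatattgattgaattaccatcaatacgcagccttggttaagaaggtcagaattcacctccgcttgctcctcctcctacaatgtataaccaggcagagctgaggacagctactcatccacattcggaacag
A match of letters is a description of the sequence. Whether it goes with the response was not tested, since the rule was chosen with these promoters in view. Of the 4 genes with an HNF1 match, Slc34a1 and Slc34a3 fell at day 3, whereas Slc5a2 and Slc5a12 were not called.

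At day 3, 4 of the 10 transporter genes fell, 1 rose and 5 were not called. Phosphate carriers NaPi-IIa and NaPi-IIc and lactate carrier SMCT1 fell the most, SGLT1 fell less, and GLUT2 was the gene that rose. Over all tested probes, 56.5% were called at day 3 (24.5% higher and 32% lower), so 5 of 10 called genes is near the background share. In 5 of the 10 genes the day 3 and sham kidneys did not overlap, against 50.9% of all probes compared. The median change of the 10 genes was -0.64, against -0.11 over all tested probes. At day 7, 1 gene was higher than sham (Slc2a2) and 2 were lower (Slc5a8 and Slc20a2), against 18.4% of all tested probes called (8.06% higher and 10.3% lower). The day 7 and sham kidneys did not overlap in 3 of the 10, against 21.3% of all probes compared. The median change was then 0.10, against -0.06 over all tested probes.

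**Figure D1:**
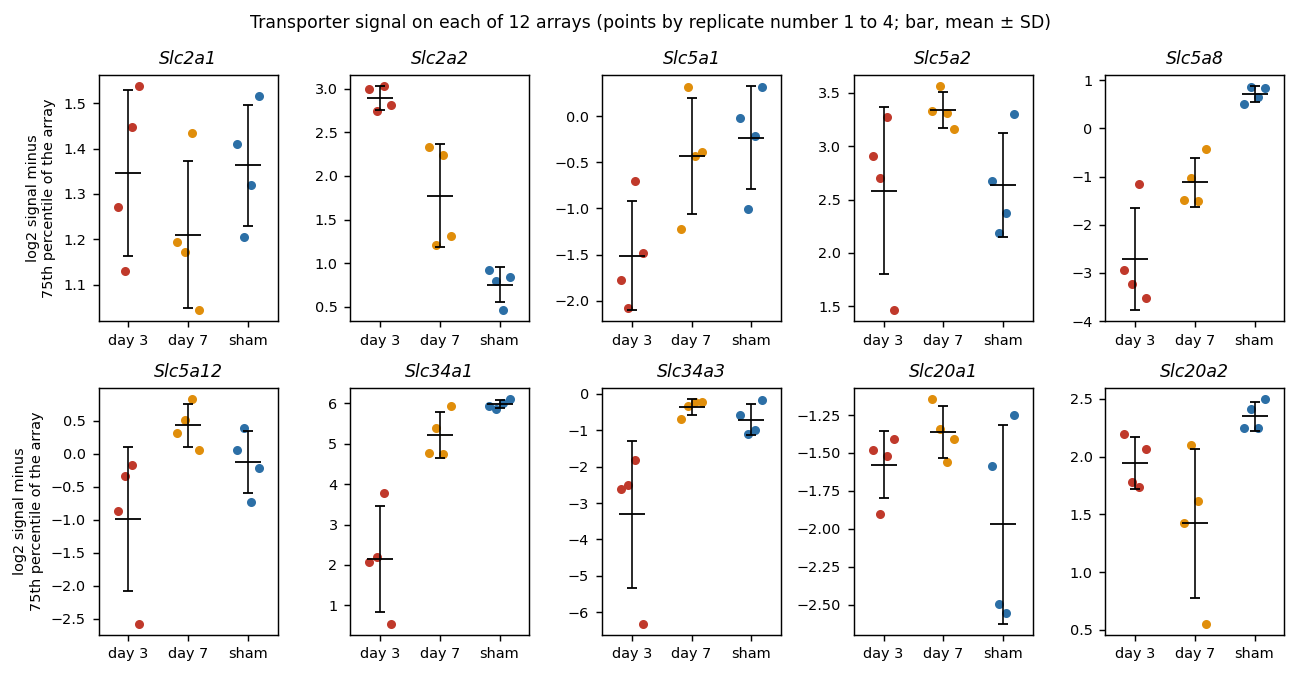
Signal of the brightest probe of each transporter gene on the 12 arrays, in log2 intensity minus the 75th percentile of the array, with day 3, day 7 and sham from left to right in each panel. Points are kidneys in order of replicate number, and bars show the mean and SD of 4 kidneys; Slc34a1 and Slc5a8 lie lowest at day 3, Slc2a2 lies highest there, and Slc2a1 stays between 1.04 and 1.54 throughout. The vertical scales differ between panels.

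GLUT2, the exit path for glucose from the early proximal tubule and also the main glucose carrier of liver, was read by 1 probe of Slc2a2 at chr2:116065774-116065833 (rat build rn4, plus strand). Its signals were 2.99, 2.74, 3.03 and 2.81 in the day 3 kidneys, 2.33, 1.21, 2.24 and 1.31 in the day 7 kidneys, and 0.92, 0.80, 0.46 and 0.84 in the sham kidneys. Every injured kidney lay above every sham kidney, and every day 3 kidney lay above every day 7 kidney. The day 7 kidneys fell into a brighter pair, replicates 1 and 3, and a dimmer pair, replicates 2 and 4. The change was 2.14 ± 0.25 at day 3 (SE, n = 4 each; 4.40-fold, adjusted p = 4.25e-05) and 1.02 ± 0.25 at day 7 (2.03-fold, adjusted p = 0.0168), and the signal was lower at day 7 than at day 3 by 2.17-fold (adjusted p = 0.00794). With the slide as a block the day 3 change was 2.09, and within the 3 slides it ran from 2.10 to 2.28. At day 7 the values within slides were wider apart, from 0.34 to 1.43, and without day 7 replicate 3 the change was 0.86 with an adjusted p of 0.0519. The rise ran against the summed signal of the proximal tubule markers, whose log2 level was 5.96 to 7.33 at day 3 and 8.87 to 8.88 in sham.

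GLUT1, the carrier of glycolytic and growing cells, was read by 10 spots of 1 Slc2a1 probe at chr5:139718779-139718838 (rn4, plus strand). The signals were 1.27, 1.13, 1.45 and 1.54 at day 3, 1.19, 1.17, 1.43 and 1.04 at day 7, and 1.41, 1.20, 1.32 and 1.52 in sham. All 3 groups overlapped. The change was -0.02 at day 3 (95% interval -0.33 to 0.30, adjusted p = 0.933) and -0.15 at day 7 (interval -0.47 to 0.16, adjusted p = 0.495). The sign of the day 3 value depended on the scaling between arrays, 0.26 by total signal and 0.0145 by quantile normalization.

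SGLT2, the sodium-glucose carrier of the early proximal tubule and the target of the gliflozin drugs, was read by an Slc5a2 probe at chr1:187529292-187529351 (rn4, plus strand). Its signals were 2.91, 2.70, 3.27 and 1.46 at day 3, 3.33, 3.57, 3.31 and 3.16 at day 7, and 2.68, 2.19, 2.37 and 3.30 in sham. At day 3 a single kidney, replicate 4, lay below all sham kidneys, and the other 3 lay inside the sham range. The day 3 change was -0.05 ± 0.35 (95% interval -0.81 to 0.71, adjusted p = 0.913), and without replicate 4 it was 0.32 (adjusted p = 0.318). At day 7 the mean was 0.71 above sham (interval -0.06 to 1.47, adjusted p = 0.179), with sham replicate 4 among the day 7 values. Its day 3 interval leaves out a loss of the size seen for Slc34a1 or Slc5a8.

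SGLT1, the high-affinity carrier of the late proximal tubule and the intestine, was read by an Slc5a1 probe at chr14:83311268-83311327 (rn4, minus strand). The signals were -1.78, -2.08, -0.71 and -1.49 at day 3, -1.23, 0.32, -0.43 and -0.39 at day 7, and -0.02, -1.01, -0.21 and 0.32 in sham. Day 3 replicate 3 lay above sham replicate 2, so the groups overlapped, while the other 3 day 3 kidneys lay below all sham kidneys. The gene fell at day 3 by 1.28 ± 0.38 on the log2 scale (2.43-fold, adjusted p = 0.0128), and the values within slides ran from -1.87 to -0.63, with -1.06 when the slide was a block. At day 7 the change was -0.20 (interval -1.03 to 0.63, adjusted p = 0.757). The day 7 kidneys were higher than those of day 3 by 1.08 (adjusted p = 0.0487), a call just inside the threshold that was lost when any 1 of day 3 replicates 1, 2 and 4 or day 7 replicates 2, 3 and 4 was left out (adjusted p up to 0.131). Markers of the S3 segment also moved, and 4 of 5 were lower at day 3 and 4 of 5 lower at day 7 (median -2.70). Over all tested probes, 32% were called lower at day 3 and 10.3% at day 7. The summed log2 levels of these markers were 3.94 to 4.90 at day 3, 4.45 to 5.52 at day 7 and 6.33 to 6.89 in sham. The part of these markers in the Slc5a1 change was not tested.

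SMCT1, which takes up lactate, pyruvate, short-chain fatty acids and nicotinate with sodium, was read by an Slc5a8 probe at chr7:25626307-25626366 (rn4, plus strand). Its signals were -2.95, -3.23, -1.15 and -3.51 at day 3, -1.49, -1.02, -1.51 and -0.43 at day 7, and 0.51, 0.87, 0.66 and 0.84 in sham. Sham kidneys lay close together and above every injured kidney at both days. Day 3 replicate 3 was within the day 7 range, and the other 3 day 3 kidneys lay below it. The gene fell at day 3 by 3.43 ± 0.44 (10.8-fold, adjusted p = 6.81e-05), and at day 7 it was still lower by 3.57-fold (log2 change -1.84 ± 0.44, adjusted p = 0.0144). Within slides the day 3 change ran from -4.10 to -1.82 and the day 7 change from -2.38 to -1.62, and with the slide as a block they were -3.24 and -1.71. The signal was higher at day 7 than at day 3 by 1.59 (adjusted p = 0.0185), which ran from 0.13 to 2.27 within slides, and this call was lost without day 3 replicate 2, day 3 replicate 4 or day 7 replicate 4 (adjusted p of 0.0559, 0.0587 and 0.0562).

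SMCT2, the low-affinity lactate carrier of the early proximal tubule, was read by 2 probes of Slc5a12. The brighter one is placed on rn4 at chr3:96087170-96089799, a stretch of 2630 bases for 60 letters, so its target lies across a gap in the genome; the other lies at chr3:96113640-96113699, both on the plus strand. The brighter probe gave -0.87, -0.34, -0.18 and -2.57 at day 3, 0.32, 0.52, 0.83 and 0.06 at day 7, and 0.05, 0.39, -0.73 and -0.21 in sham. Day 3 replicate 4 lay far below the other kidneys, the remaining day 3 kidneys overlapped sham, and every day 7 kidney lay above every day 3 kidney. The day 3 change was -0.86 ± 0.45 (interval -1.85 to 0.12, adjusted p = 0.12), -0.34 without replicate 4, and the day 7 change was 0.56 (interval -0.43 to 1.54, adjusted p = 0.42). The second probe gave -0.62 (adjusted p = 0.222) and 0.85 (adjusted p = 0.17). Between the days both probes were called, at 1.42 (adjusted p = 0.0331) and 1.47 (adjusted p = 0.0207) higher at day 7. For the brighter probe, blocking on the slide gave 1.41 (adjusted p = 0.0568), the values within slides ran from 0.53 to 2.55, and the change was 0.89 without day 3 replicate 4 (adjusted p = 0.0512). The call was also lost without day 3 replicate 1 or any 1 of the 4 day 7 kidneys, with adjusted p of 0.0501 to 0.0698.

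The 2 Slc5a12 probe sequences are shown because different stretches of the transcript gave the same answer.
Slc5a12 brighter probe: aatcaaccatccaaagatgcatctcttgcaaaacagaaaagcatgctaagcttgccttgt
Slc5a12 second probe: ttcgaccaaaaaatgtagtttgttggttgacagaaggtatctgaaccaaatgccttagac

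NaPi-IIa, the main phosphate carrier of the proximal tubule brush border and the target of parathyroid hormone and FGF23, was read by an Slc34a1 probe at chr17:15262929-15262988 (rn4, minus strand). Its signals were 2.07, 2.20, 3.78 and 0.55 at day 3, 4.76, 5.39, 4.74 and 5.93 at day 7, and 5.93, 5.86, 6.01 and 6.10 in sham. Every day 3 kidney lay below every day 7 and sham kidney. The sham kidneys spanned 0.24 in all, while the day 3 kidneys spanned 3.23, with replicate 3 highest and replicate 4 lowest. The gene fell at day 3 by 3.83 ± 0.52 (14.2-fold, adjusted p = 0.000104), the largest change among the 10 genes, and at day 7 it was 8.33-fold higher than at day 3 (adjusted p = 0.00227). Within slides the day 3 change ran from -4.55 to -2.24, and it was -3.55 with the slide as a block. At day 7 the change against sham was -0.77 (interval -1.91 to 0.37, adjusted p = 0.329): replicates 1, 2 and 3 lay below all sham kidneys and replicate 4 lay within the sham range.

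NaPi-IIc, a second brush border phosphate carrier whose loss causes hereditary hypophosphataemic rickets with hypercalciuria in humans, was read by an Slc34a3 probe at chr3:3393649-3393708 (rn4, minus strand). The signals were -2.62, -2.50, -1.81 and -6.31 at day 3, -0.70, -0.34, -0.23 and -0.21 at day 7, and -0.59, -1.11, -0.995 and -0.17 in sham. Day 3 replicate 4 was not well above background, and it stood far below the other 3, which themselves lay below every day 7 and sham kidney. The gene fell at day 3 by 2.60 ± 0.75 (6.06-fold, adjusted p = 0.011), and without replicate 4 it fell by 1.60 (adjusted p = 0.000797). Within slides the change ran from -3.36 to -1.44, and it was -2.28 with the slide as a block. At day 7 it was 0.35 from sham (interval -1.28 to 1.97, adjusted p = 0.791) and 2.95 above day 3 (adjusted p = 0.0136), or 1.95 above day 3 without replicate 4.

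PiT-1, read by an Slc20a1 probe at chr3:116827822-116827881 (rn4, plus strand), gave -1.48, -1.90, -1.52 and -1.41 at day 3, -1.14, -1.34, -1.56 and -1.41 at day 7, and -1.58, -2.49, -2.55 and -1.25 in sham. The sham kidneys fell into a high pair, replicates 1 and 4, and a low pair, and every injured kidney lay above the low pair. The high pair were the sham arrays of slide 1 and of the first scan batch, and the low pair were in the second batch. The part of slide and scan batch in these pairs was not tested. The change was 0.39 at day 3 (interval -0.20 to 0.99, adjusted p = 0.238) and 0.61 at day 7 (interval 0.01 to 1.20, adjusted p = 0.143). Without sham replicate 4 both were called, at 0.63 (adjusted p = 0.043) and 0.85 (adjusted p = 0.0334). Within slides 1, 2 and 3 the day 3 change was -0.11, 1.05 and 0.65. The day 7 change within them was 0.07, 0.93 and 1.28. With the slide as a block the changes were 0.50 (adjusted p = 0.117) and 0.73 (adjusted p = 0.0704).

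PiT-2 was read by 3 probes of Slc20a2 on the minus strand of chromosome 16 in rn4, at chr16:73950192-73950251 (probe 1), chr16:73949009-73949068 (probe 2) and chr16:73956331-73956390 (probe 3). Probe 1, the brightest, gave 2.20, 1.78, 1.74 and 2.07 at day 3, 1.43, 2.10, 1.62 and 0.56 at day 7, and 2.25, 2.41, 2.25 and 2.50 in sham. Every injured kidney lay below every sham kidney, by a small margin at day 3, and day 7 replicate 4 lay lowest. The change was -0.41 at day 3 (adjusted p = 0.213) and -0.93 ± 0.27 at day 7 (1.90-fold lower, adjusted p = 0.0329). Probe 3 was also lower at day 7 (-0.81, adjusted p = 0.0237), whereas probe 2 was not called (-0.17, interval -0.58 to 0.24, adjusted p = 0.574). The call of probe 1 was lost in 12 of 21 alternatives, with an adjusted p of 0.0516 to 0.759 there. Its values within slides ran from -1.26 to -0.27, with -0.82 (adjusted p = 0.0488) after blocking on the slide.

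The 3 probes are shown because they did not give the same answer at day 7.
Slc20a2 probe 1: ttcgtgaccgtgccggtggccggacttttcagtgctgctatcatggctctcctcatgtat
Slc20a2 probe 2: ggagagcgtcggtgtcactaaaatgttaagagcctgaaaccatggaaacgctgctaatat
Slc20a2 probe 3: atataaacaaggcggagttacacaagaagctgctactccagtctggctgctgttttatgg

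**Figure D2:**
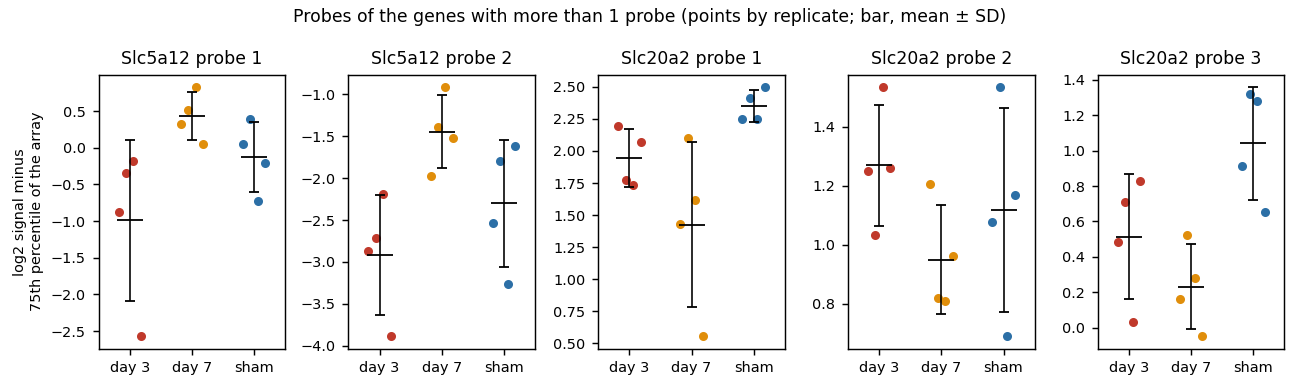
Signal of the 2 Slc5a12 and 3 Slc20a2 probes on each array, in log2 intensity minus the 75th percentile of the array, with day 3, day 7 and sham from left to right. Points are kidneys by replicate number and bars show the mean and SD of 4 kidneys; both Slc5a12 probes are higher at day 7 than at day 3, while Slc20a2 probe 2 has overlapping day 7 and sham kidneys.

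Between the injured groups, 6 of the 10 genes were called: Slc34a1, Slc34a3, Slc5a8, Slc5a12 and Slc5a1 were higher at day 7 than at day 3, and Slc2a2 was lower. Over all tested probes 30.7% were called in this comparison (17.1% higher and 13.6% lower), and the median change of the 10 genes was 0.92, against 0.03 over all tested probes. In 4 of the 10 genes the day 7 and day 3 kidneys did not overlap, near the 35.6% of all probes compared for which this held. Both injured groups were set against the same sham kidneys, so their changes from sham are not independent of each other. The genes called at day 7 against sham were Slc2a2 and Slc5a8, both called at day 3 in the same direction, and Slc20a2, which was not called at day 3.

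**Figure D3:**
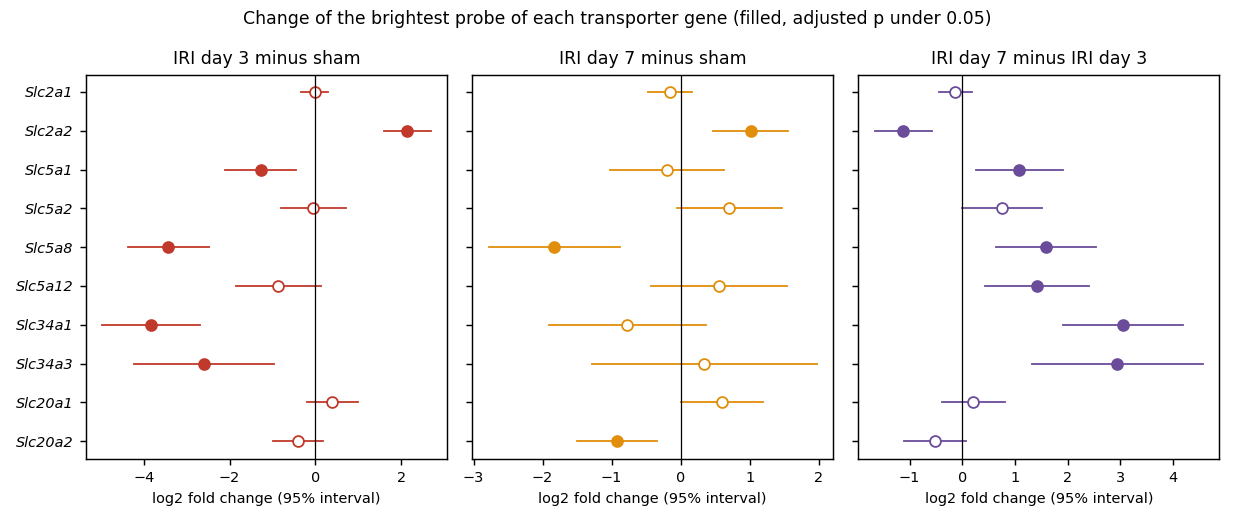
Log2 fold change of the brightest probe of each transporter gene, with its 95% interval, for day 3 minus sham, day 7 minus sham and day 7 minus day 3. Filled points had an adjusted p below 0.05; Slc34a1 stands at -3.83, -0.77 and 3.06 in the 3 panels, and Slc2a2 at 2.14, 1.02 and -1.12.

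The balance between carriers of the same solute was read as the difference of 2 signals on the same array, described here with no test. The value of such a difference depends on the probes, so only its shift between groups is given. Slc2a2 over Slc2a1 was 2.15 higher at day 3 and 1.17 higher at day 7 than in sham, with no overlap at either day. Slc5a2 over Slc5a1 was 1.23 higher at day 3, with overlap, and 0.91 higher at day 7, without overlap. Among lactate carriers, Slc5a12 over Slc5a8 was 2.56 higher at day 3 and 2.39 higher at day 7, with no overlap with sham at either day, and so this shift was nearly as large at day 7 as at day 3. Among phosphate carriers, Slc34a1 over Slc20a1 shifted by -4.22 at day 3 and by -1.38 at day 7, with no overlap with sham at either day. Slc34a1 over Slc34a3 shifted by -1.23 at day 3, with overlap, and by -1.12 at day 7, without overlap. The day 3 overlap came from replicate 4 alone, whose Slc34a3 signal was not well above background. All other day 3 kidneys lay below every sham kidney in this difference. Slc20a1 over Slc20a2 was 0.80 higher at day 3 and 1.53 higher at day 7, with no overlap with sham at either day.

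The SD over the 4 kidneys was larger at day 3 than in sham for all 6 urinary-side carriers. It was also larger for Slc2a1 (0.18 against 0.13) and Slc20a2 (0.22 against 0.13). For Slc2a2 (0.14 against 0.20) and Slc20a1 (0.22 against 0.65) the SD was smaller at day 3. Among the urinary-side carriers it ranged widely. It was 0.59 against 0.56 for Slc5a1, 1.32 against 0.11 for Slc34a1 and 2.03 against 0.43 for Slc34a3. This difference in spread was not tested. The day 3 value of Slc34a3 rests largely on replicate 4, at -6.31, which was not well above background. Replicates 1 to 3 were at -2.62, -2.50 and -1.81. Replicate 3 had the highest signal among the day 3 kidneys for 7 of the 10 genes, Slc2a2, Slc5a1, Slc5a2, Slc5a8, Slc5a12, Slc34a1 and Slc34a3. Replicate 4 had the lowest for 5, Slc5a2, Slc5a8, Slc5a12, Slc34a1 and Slc34a3. The summed log2 level of the 12 proximal tubule markers had the same order at its ends, 6.60, 6.53, 7.33 and 5.96 in replicates 1 to 4, and that of the 6 injured tubule markers was 5.70, 5.70, 5.50 and 5.97. Replicate 3 was the single day 3 array on its slide and in the first of 2 scan batches. Replicate 2 was also the single day 3 array on its slide, while replicate 4 shared its slide with replicate 1. The part of the marker levels and of the slide in this spread was not tested.

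**Figure D4:**
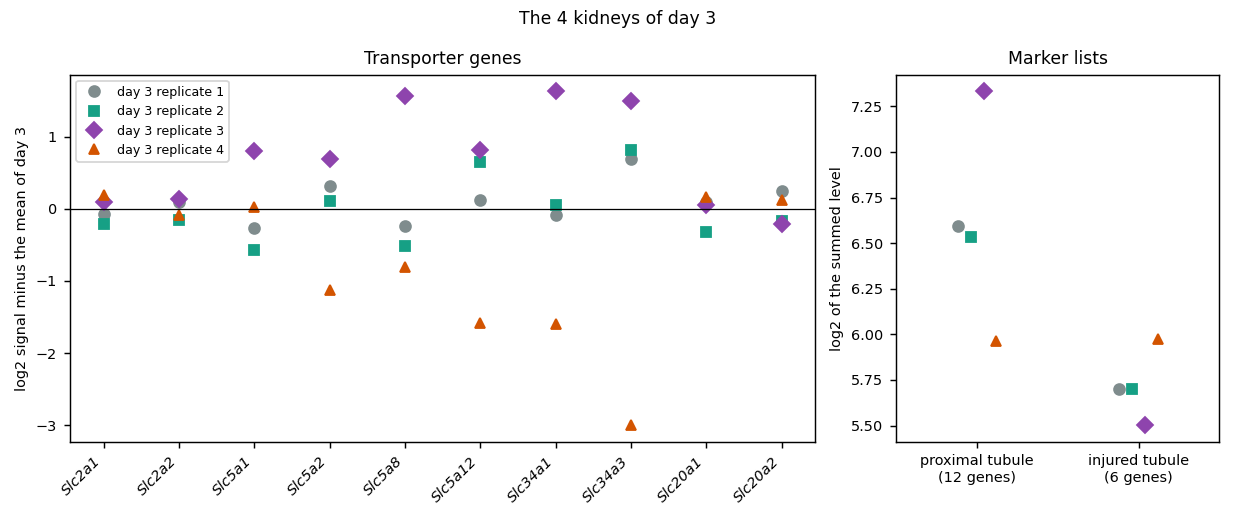
Left, log2 signal of each transporter gene in the 4 day 3 kidneys minus the mean of day 3; right, log2 of the summed level of 12 proximal tubule and 6 injured tubule markers in the same kidneys. Each symbol is a kidney; replicate 3 lies highest and replicate 4 lowest for Slc5a2, Slc5a8, Slc5a12, Slc34a1, Slc34a3 and the proximal tubule markers.

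Other genes of the same pathways, in 5 lists of 67 genes of which 56 were tested, gave 34 lower and 7 higher calls at day 3, and 11 lower and 4 higher at day 7. Over all tested probes, 32% were called lower and 24.5% higher at day 3, and 10.3% lower and 8.06% higher at day 7, and the counts of each list below stand against these same shares. Of the higher calls, Slc16a1 and Slc34a2 were tested only because they were bright at day 3, so their calls are no support for a rise of the lists. Of 11 other hexose carriers, 8 fell at day 3 and the other 3 were not called. The 8 include the dim gene Slc2a4, at -4.39 at day 3 and -3.30 in sham, above background on 3 of 4 sham arrays. The part of the scaling between arrays in this fall was not tested. Slc5a10, the SGLT5 fructose and mannose carrier, fell by 4.70 (26.0-fold, adjusted p = 5.03e-05), and Slc5a11, an inositol carrier, fell by 2.23. Slc2a5, the fructose carrier GLUT5, fell by 1.46 at day 3, and its change at day 7 was -0.97. At day 7, Slc2a5 and Slc5a9, a mannose and fructose carrier with a change of -0.85, were the called hexose carriers.

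Of 13 genes of glucose handling, 7 fell and 3 rose at day 3. Pck1, the enzyme that commits to gluconeogenesis, had signals of -1.34, -1.15, 0.44 and -2.48 at day 3, 1.80, 1.41, 1.24 and 1.69 at day 7, and 5.34, 5.35, 4.99 and 4.97 in sham. It fell by 6.29 at day 3 (78.5-fold, adjusted p = 3.79e-06) and was still lower at day 7 (change -3.63, 12.4-fold, adjusted p = 0.00068). G6pc, the enzyme that frees glucose for export, fell by 4.39 at day 3, Fbp1, a gluconeogenic phosphatase, fell by 2.72, and Hnf4a, a transcription factor of proximal tubule and liver, fell by 2.24. Slc2a2, the exit carrier for the glucose these enzymes make, was higher at day 3 while Pck1, G6pc and Fbp1 were lower. At day 7 the hexokinases, which trap glucose in the cell, differed: Hk2 was lower (-1.42), Hk1 was higher (0.78, adjusted p = 0.0171) and Hk3 was not called (-0.06).

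Of 10 genes of lactate handling, 6 fell and 2 rose at day 3. Slc16a1, the proton-coupled carrier MCT1, had signals of -1.50, -1.25, -2.29 and -1.54 at day 3, against -6.43, -6.35, -5.45 and -6.49 in sham, where it was well above background on 0 of 4 arrays. It was at least 4.99-fold higher at day 3, a lower bound that sets each sham array to the dimmest signal that stood above background on it. At day 7, with 2 of 4 arrays above background, the bound was 1.07-fold and the day 7 and sham kidneys overlapped. No p is given for these bounds, since the fit compares with sham signals that were not above background. Slc16a7, the high-affinity carrier MCT2, fell by 2.85 at day 3, Slc16a4 fell by 2.08 and Me1, the cytosolic malic enzyme, fell by 1.64. Me1 was also lower at day 7 (-2.04).

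Of 10 phosphate transporters and scaffold genes, 6 fell and 1 rose at day 3, and 4 were lower and 1 higher at day 7. The gene that rose was Slc34a2, the NaPi-IIb carrier known from gut and lung and a close relative of the 2 genes that fell. Its signals were -0.54, -0.56, -0.70 and -0.38 at day 3, -1.37, -2.51, -0.58 and -3.95 at day 7, and -6.46, -6.33, -5.41 and -6.49 in sham, where 0 of 4 arrays stood above background. It was at least 10.7-fold higher at day 3 and at least 3.64-fold higher at day 7, with 4 and 3 arrays above background, bounds that again carry no p. Pdzk1, a scaffold that holds NaPi-IIa in the brush border, changed by -1.82, and Slc9a3r2, another scaffold gene of the list, by -2.01. Alpl, tissue-nonspecific alkaline phosphatase, fell by 3.48. Slc9a3r2 was still lower at day 7 (-1.67).

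Of 12 hormones and receptors of phosphate balance, 7 fell and 1 rose at day 3, and by limma 0 of 12 were called at day 7, where 2 had an unadjusted p under 0.05. The 7 include the dim genes Fgf23 (-4.17 at day 3 and -3.42 in sham) and Stc1 (-4.16 and -3.12). Each was above background on 3 of 4 sham arrays, and Stc1 was so on 3 of 4 arrays at day 3. The part of the scaling between arrays in the falls of these dim genes was not tested. Kl, the co-receptor through which FGF23 acts, fell by 2.17, Vdr, the vitamin D receptor, fell by 2.21 and Sgk1, a kinase that regulates sodium transport, fell by 1.23. Cyp24a1, the enzyme that breaks down active vitamin D, was the gene that rose (1.70). At day 7 its signals were -1.45, -1.45, -0.11 and -2.77, against -0.70, -0.86, -2.26 and -1.41 in sham, and the groups overlapped.

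**Figure D5:**
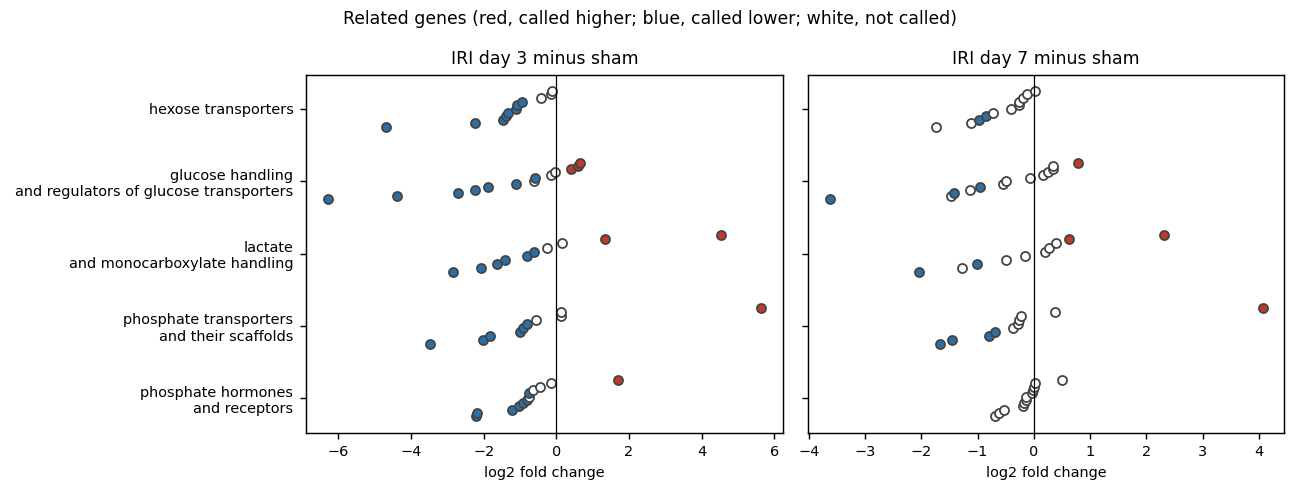
Log2 fold change of the tested related genes in 5 lists, for day 3 minus sham and day 7 minus sham, each point a gene. Red points were called higher, blue lower and white not called; the red points far to the right are Slc34a2 and Slc16a1, whose sham signals were not above background, so that their plotted positions are fitted values and not sizes of a change.

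The genes most like each transporter over the 12 arrays were searched among 13713 probes by Pearson's r, given as a description since the arrays fall into 3 groups and share the group differences. Slc34a1 was most like Fn3k (r = 0.995) and Slc22a8 (r = 0.992), the organic anion transporter OAT3 of proximal tubule. Slc5a8 was most like Gsta4 (r = 0.993) and the water channel gene Aqp1 (r = 0.989), and Slc2a2 most like Gpx2 (r = 0.990) and the chemokine gene Cxcl16 (r = 0.982). For these 3 genes, 505, 644 and 592 probes had an r above 0.9. For Slc34a3, Slc5a1 and Slc20a2 the numbers were 16, 5 and 11, and for Slc5a2 and Slc20a1 1 each. Slc5a12 and Slc2a1 had 0 such probes, with highest values of 0.880 and 0.815.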

How the data were processed

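Per the labels, total RNA of left kidneys was labelled with Cy3; the kit they name is one for DNA labelling. Per the file headers, Agilent Feature Extraction 9.5.1.1 made the processed signal of each spot, a background-subtracted intensity not normalized between arrays, and probes were placed on rat build rn4; which exon or UTR a probe lies in was not analysed here. The mean signal and local background, intensities per the file headers, and their flags for background, saturation and outliers (values of 0 or 1) served alternatives and filters. The authors' deposited value table holds log2 values centred on each probe's median over the 12 arrays. Its correlation with the scanner values was 0.998 or more, and it was used as an alternative; its column medians were -0.11, -0.16, 0.0018 and -0.21 for day 3 replicates 1 to 4, 0.01, 0.04, 0.0050 and 0.12 for day 7, and -0.0011, -0.03, 0.30 and 0.01 for sham.

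The log2 processed signal minus the 75th percentile of the array was used. Outlier spots were set aside (9 spots of Slc2a1) and the spots of a probe averaged. Testing was limited to probes flagged as well above background on every array (4 of 4) of some group. limma 3.58.1 in R 4.3.3 fitted a mean for each group with 1 pooled spread over the 12 arrays, two-sided, with Benjamini-Hochberg adjustment over 21062 probes. Per the labels each group held 4 rats, so p-values measure the spread between rats together with that of the arrays, and 4 arrays per group limit the precision. The fit was tested on simulated data. Arrays lay on 3 slides and in 2 scan batches; scaling, background, filters, slide, scan batch, replicate number and each array were varied. All 10 genes were named, and related genes by size of change within lists. The genes and lists were chosen with earlier results of these data known. The HNF1 letters are from general knowledge, and their match rule and its alternatives were chosen after the promoters of these genes were seen. Replicate numbers do not pair rats: of 12 same-numbered pairs, deviations correlated at -0.33 to 0.14, and 2 pairs were over 0.1.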

Additional observations from a re-analysis of the deposited data

Results flagged for a closer look

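The change from sham at day 7 was compared with that at day 3, a test in which the shared sham kidneys cancel. This is the comparison of day 7 with day 3 given above. It differed between the days for 6 of the 10 genes by limma, against 30.7% of all tested probes called. The difference, day 7 minus day 3 on the log2 scale, was 3.06 for Slc34a1, 2.95 for Slc34a3, 1.59 for Slc5a8, 1.42 for Slc5a12 and 1.08 for Slc5a1, all higher at day 7, and -1.12 for Slc2a2. For Slc34a1, Slc34a3, Slc5a12 and Slc2a2 the day 7 and day 3 kidneys did not overlap, as in 35.6% of all probes compared. No kidney stood apart from its group by Dixon's ratio in the 30 sets of 4 values (10 genes in 3 groups). The highest ratio was 0.820, for Slc34a3 in day 3 replicate 4, below the critical value for 4 samples.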

How the results depend on the processing

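Of 14 changes called among the transporters, 5 stayed called under all alternatives in which they were tested, and 0 of 14 changed sign. The 5 were Slc34a1 in both comparisons with day 3, and Slc2a2, Slc5a8 and Slc34a3 at day 3 against sham. Slc34a3 was tested in 20 of the 21 alternatives, since a filter for probes above background on all 12 arrays left it out. Within single slides the called changes all kept their sign. The least stable were Slc20a2 at day 7 and Slc5a1 between the days, each lost in 12 of 21 alternatives, and Slc5a12 between the days, lost in 8. Few arrays and dim signals limit Slc34a3, whose day 3 replicate 4 was not well above background, and the second Slc5a12 probe.

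Normexp background correction with an offset of 50 called fewer probes, 3322 for day 3 against sham, 92 for day 7 against sham and 173 between the injured groups, and 0 transporters at day 7 and 1 between the days. With spots below their local background left out the counts were 13310, 3889 and 8571. Fitting only the groups compared gave 2284 probes and 1 transporter at day 7, against 3867 and 3. With the replicate block the probes called numbered 11399 (day 3), 2726 (day 7) and 5183 (day 7 against day 3), and the transporters 5, 2 and 5; Slc20a2 at day 7 (adjusted p = 0.0644) and Slc5a1 between the days (adjusted p = 0.0708) were lost. Leaving out 1 array gave 10398 to 11785 probes (day 3), 2292 to 3831 (day 7) and 3829 to 6827 (day 7 against day 3), and 5 to 6, 1 to 3 and 3 to 6 transporters. The probe count moved most without day 7 replicates 1 (2427) and 3 (2292) at day 7, and without day 3 replicates 2 (4031) and 4 (3829) or day 7 replicate 4 (4217) between the days. Transporters fell to 1 at day 7 without day 7 replicate 3, and to 3 between the days without day 3 replicate 4 or day 7 replicate 4. The causes were not tested.

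Of the called probes, 43.4% were higher at day 3 and 43.9% at day 7, with a median change over all probes of -0.11 and -0.06. Scaling by total signal gave 59.8% and 78.2%, with medians of 0.17 and 0.17. The authors' table gave 55.9% at day 7. For normexp the shares were 53% and 81.5%; with spots below local background left out 33.3% at day 3. Changes are relative to these medians.

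Values that changed sign had not been called. Under normexp these were Slc20a1 at day 3 (-0.36) and day 7 (-0.09), Slc20a2 at day 3 (0.0862), Slc2a1 at day 3 (0.31) and day 7 (0.18), Slc34a3 at day 7 (-0.0353) and Slc5a2 at day 3 (0.46), and with spots below local background left out Slc2a1 (0.063) and Slc5a2 (0.0733) at day 3. Under total signal scaling they were Slc2a1 at day 3 (0.26) and day 7 (0.084), Slc5a1 at day 7 (0.0355) and Slc5a2 at day 3 (0.22). Quantile normalization gave 0.0145 for Slc2a1 at day 3, and the authors' table gave 0.081 for Slc2a1 and 0.0463 for Slc5a2. With the slide as a block they were Slc5a1 at day 7 (0.0393) and Slc5a2 at day 3 (0.14), and with the scan batch Slc2a1 at day 3 (0.0101), Slc5a1 at day 7 (0.0299) and Slc5a2 at day 3 (0.11). When 1 array was left out, Slc2a1 at day 3 ran from -0.0802 to 0.0559, Slc5a1 at day 7 from -0.46 to 0.0636 and Slc5a2 at day 3 from -0.28 to 0.32.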
